A study of Mus musculus with 6 samples.

Results

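Mature neutrophils were sought among single cells of the mouse spinal cord by their RNA. The barcodes were chosen by their own UMI counts (a UMI, or unique molecular identifier, stands for 1 captured RNA molecule): a barcode was taken where it held at least 200 genes, at most 20% mitochondrial UMIs, at least 2 UMIs over the 7 maturity genes Retnlg, Cxcr2, Mmp8, Mmp9, Il1r2, Clec4d and Hdc, and under 5 UMIs over the 5 granule genes Camp, Ngp, Ltf, Lcn2 and Chi3l3. This gate took 130 of 3360 retained barcodes, or 3.87%. The 6 libraries formed 3 groups of 2: wild-type mice given vehicle (WT-Veh), SOD1-G93A mice given vehicle (SOD1-Veh) and SOD1-G93A mice given Necrostatin-1s (SOD1-Nec). SOD1-G93A mice carry a mutant human SOD1 transgene and model amyotrophic lateral sclerosis, and Necrostatin-1s inhibits the kinase RIPK1. The labels give no age, sex, strain or dose, and do not say whether libraries came from separate animals, so p-values measure only the spread between these libraries. Cords were digested with Accutase, cleared of myelin and passed over a density gradient.

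Neutrophils are short-lived phagocytes that mature in the bone marrow. Granule proteins such as the cathelicidin Camp, neutrophilic granule protein Ngp and lactoferrin Ltf are transcribed in immature cells and are switched off as the cell matures. Mature cells gain the chemokine receptor Cxcr2, through which they leave the marrow and enter tissue, together with Retnlg, the gelatinase Mmp9, the collagenase Mmp8 and the decoy interleukin-1 receptor Il1r2. Hdc, which makes histamine, is also a gene of basophils and mast cells.

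The libraries held between 1508618 and 1767205 UMIs. Values per library are given in library order, which is WT-Veh 1 and 2, then SOD1-Veh 1 and 2, then SOD1-Nec 1 and 2. Retained barcodes had a median of 600 UMIs, members 526 UMIs and 273.5 genes, immature neutrophils 758.5 UMIs and monocytes 627.5 UMIs. Immature neutrophils (378 barcodes) were those with at least 5 granule UMIs. Monocytes (296 barcodes) had at least 2 UMIs over Ccr2, F13a1, Ly6c2, Ms4a4c, Ms4a6c and Fn1, and stayed below both neutrophil limits. B cells (324 barcodes), which should lack neutrophil RNA, served as the background. Of the 21919 barcodes, 25 occurred in more than 1 library, and none of these was a member.

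The data go against the label for part of the members. S100a8 and S100a9, the calprotectin subunits that are among the most abundant RNAs of every neutrophil, made up at least 2% of UMIs in 92 of the 130 members. In these S100-rich members the median share was 16.6% and the median maturity count was 16.5 UMIs. In the 38 other members the medians were 0.0338% and 2 UMIs. Between these sets the values were sparse: 36 members lay under 0.4%, 2 lay between 0.4% and 2%, and 86 lay above 4%. The division was drawn after the values were seen, and S100a8 and S100a9 get no test within it. It was applied to the members only, and immature neutrophils and monocytes were left as they were.

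**Figure D1:**
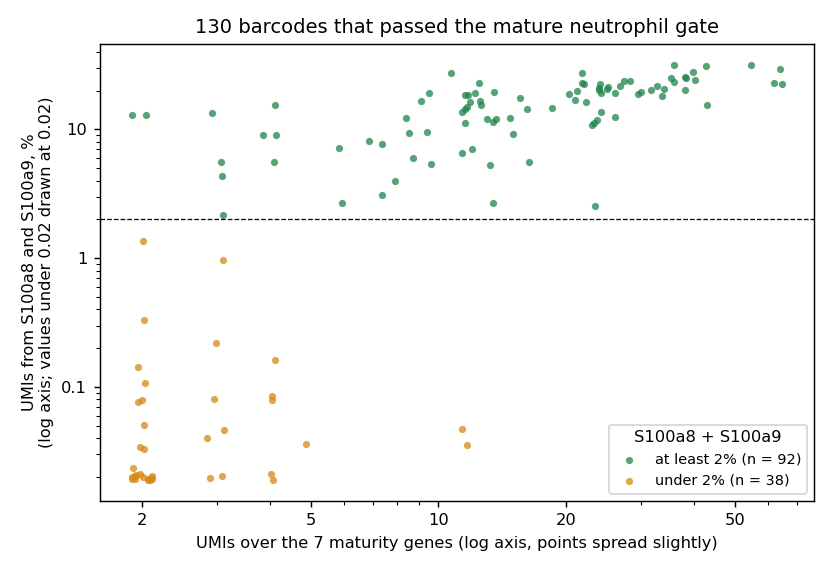
Each point is 1 of the 130 members; the x axis gives UMIs over the 7 maturity genes and the y axis the percent of UMIs from S100a8 and S100a9, both on log axes, with values under 0.02 drawn at 0.02. The dashed line at 2% separates 92 S100-rich members from 38 others, nearly all of which hold few maturity UMIs.

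The 38 other members mostly carried RNA of other cells. Of these, 6 drew 20% or more of their UMIs from erythroid genes, 21 others held at least 3 monocyte UMIs, and 8 fell in none of the classes described here. The erythroid cut was also reached by 457 of 3360 retained barcodes and by 11 of all 130 members. The 6 of 38 are thus near the share over all retained barcodes. With erythroid barcodes included, 23 of the 38 held at least 3 monocyte UMIs, against 60 of 378 immature neutrophils and 0 of 92 S100-rich members. The 38 were also deeper, with a median of 1215 UMIs against 477.5 in S100-rich members. For this monocyte cut, the share over all retained barcodes is not given, and the part of depth was not tested. Another 2 of the 38 were led by basophil genes. In the first of them, from WT-Veh 1, 10 of its 11 maturity UMIs were Hdc, beside 11 UMIs of the basophil protease Mcpt8 and 9 of Prss34. The second, from SOD1-Nec 2, held 3 Hdc UMIs with 12 of Mcpt8 and 12 of Prss34. The last was a barcode of 43509 UMIs and 8044 genes in SOD1-Nec 1 that supplied 76.4% of all member UMIs of that library. It held 12 maturity UMIs but 9 of S100a8 and 7 of S100a9, against 553 of Dbi, 441 of Nnat and 121 of Ccdc153. The main counts of called genes are therefore given with and without these barcodes, and so are the genes and lists for which they moved the value most.

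The gate edge fell in this mixture. Of the 25 members with exactly 2 maturity UMIs, 2 were S100-rich, and of the 165 barcodes just outside with 1 maturity UMI, 3 were. At the granule limit, 26 members held 3 or 4 granule UMIs with a median S100 share of 13.6%, and the 15 barcodes just above it (5 or 6 granule UMIs, 2 or more maturity UMIs) had a median of 20.1%. All 43 members with 20 or more maturity UMIs were S100-rich.

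The S100-rich members carried the neutrophil programme that the gate asked for. Retnlg, a resistin-like secreted protein, was detected in 94.6% of them, in 31.6% of the other members, in 53.7% of immature neutrophils and in 3.40% of B cells, whose median depth of 542.5 UMIs was close to that of the S100-rich members (477.5). Cxcr2 was detected in 46.7% of S100-rich members, 22.2% of immature neutrophils and 0.617% of B cells. For Mmp8 the shares were 82.6%, 49.7% and 1.23%. Mmp9 was the exception in these shares, with 38% of S100-rich members against 47.1% of immature neutrophils, which were deeper (median 758.5 UMIs). Per 10000 UMIs, Mmp9 stood at 15.7 ± 8.04 in S100-rich members and 12.2 ± 5.40 in immature neutrophils (SD, n = 6). These genes chose the barcodes, so the shares are a description.

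Retnlg gave the most UMIs of the 7 maturity genes in every library. The members held 378, 139, 233, 213, 92 and 150 UMIs of it in library order. Per 10000 UMIs, all S100-rich members of a library together held between 132.3 and 310.5 UMIs of Retnlg (mean 240.1 ± 60.5, SD, n = 6). The other members held 3.04 ± 4.16. Cxcr2 stood at 16.4 ± 4.34 in S100-rich members, 3.45 ± 1.44 in immature neutrophils and 0 in monocytes, whose own selection limited maturity UMIs. Of the 7 genes, 27 members showed only 1, and 2 members showed all 7.

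Defining markers of other lineages were scarce in the S100-rich members. Progenitor genes (Mpo, Elane, Prtn3, Ctsg, Ms4a3 and Prss57), T and NK cell genes, and eosinophil, basophil and mast cell genes were at 0 in all 92. Summed monocyte markers reached at most 2 UMIs, and 74 of the 92 had none. Myelin and red cell RNA were different: oligodendrocyte markers were at 3 or more UMIs in 77 of the 92 (median 6, highest 97) and erythroid markers in 56 (median 3, highest 905). Immature neutrophils and monocytes had the same oligodendrocyte median of 6. Haemoglobin made up 3005 to 7772 of every 10000 UMIs in barcodes with under 100 genes. Whether these barcodes hold free RNA or red cells was not tested.

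The comparison of mature with immature neutrophils asked which genes outside the gate differ between these stages within a library. Il1b, the inflammatory cytokine interleukin-1 beta, and Ccl6, a chemokine of myeloid cells, were higher in the members, and 21 genes were lower, led by the ficolin Fcnb, the serpin Serpinb1a and the leukotriene A4 hydrolase Lta4h. Of 547 genes tested, 24 passed an adjusted p of 0.05 in edgeR (4.39%): 3 higher (0.548%) and 21 lower (3.84%). The median log2 fold change over all tested genes was 0.01. Without the barcode of 43509 UMIs, 18 genes were higher and 31 lower, and in the S100-rich members alone 44 were higher and 43 lower of 290 tested.

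Il1b showed the largest rise. Immature neutrophils held 21, 5, 4, 6, 13 and 2 UMIs of it, in library order. The members, with far fewer UMIs in all, held 32, 32, 21, 13, 7 and 25. The members were higher in 5 of 6 libraries, the exception being SOD1-Nec 1, the library with the large barcode. The log2 fold change was 3.04 ± 0.60 (SE; edgeR adjusted p = 0.00484). Almost all of this RNA lay in the S100-rich members, which held 10.3 to 49.1 UMIs per 10000, against 0.220 to 2.13 in immature neutrophils and 0 to 6.69 in the other members. In the S100-rich members the 6 libraries did not overlap the immature values, and the log2 fold change was 4.27. Il1b was detected in 44.6% of S100-rich members, 6.61% of immature neutrophils and 0 of 324 B cells, which allows a share of up to 0.926%.

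Ccl6 followed the same order. Members held 43, 30, 29, 34, 9 and 53 UMIs, and the log2 fold change against immature neutrophils was 2.36 ± 0.56 (edgeR adjusted p = 0.0192), with members higher in 5 of 6 libraries. S100-rich members held 31.8 ± 15.8 UMIs per 10000 and immature neutrophils 3.26 ± 2.29 (SD, n = 6), and the lowest S100-rich value, 7.35 in SOD1-Nec 1, was above the highest immature value, 6.69. Csf3r, the receptor for the neutrophil growth factor G-CSF, and Srgn, the proteoglycan serglycin that packs granules, did not pass over all members (log2 fold changes 1.42 and 1.28, edgeR adjusted p = 0.0922 for each). Over the S100-rich members both passed, at 2.69 and 2.00. The S100 limit was set on the members only, by neutrophil RNA, so this is no independent support for a difference in maturity.

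F13a1 was the third gene called higher, with a log2 fold change of 1.28 ± 0.35 (edgeR adjusted p = 0.0492). F13a1 encodes coagulation factor XIII A and is one of the genes by which monocytes were chosen here. None of its 71 UMIs in the members was in an S100-rich barcode. The other members held 8.59 ± 4.60 UMIs of F13a1 per 10000, between immature neutrophils (1.95 ± 1.05) and monocytes (15.7 ± 3.63).

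**Figure D2:**
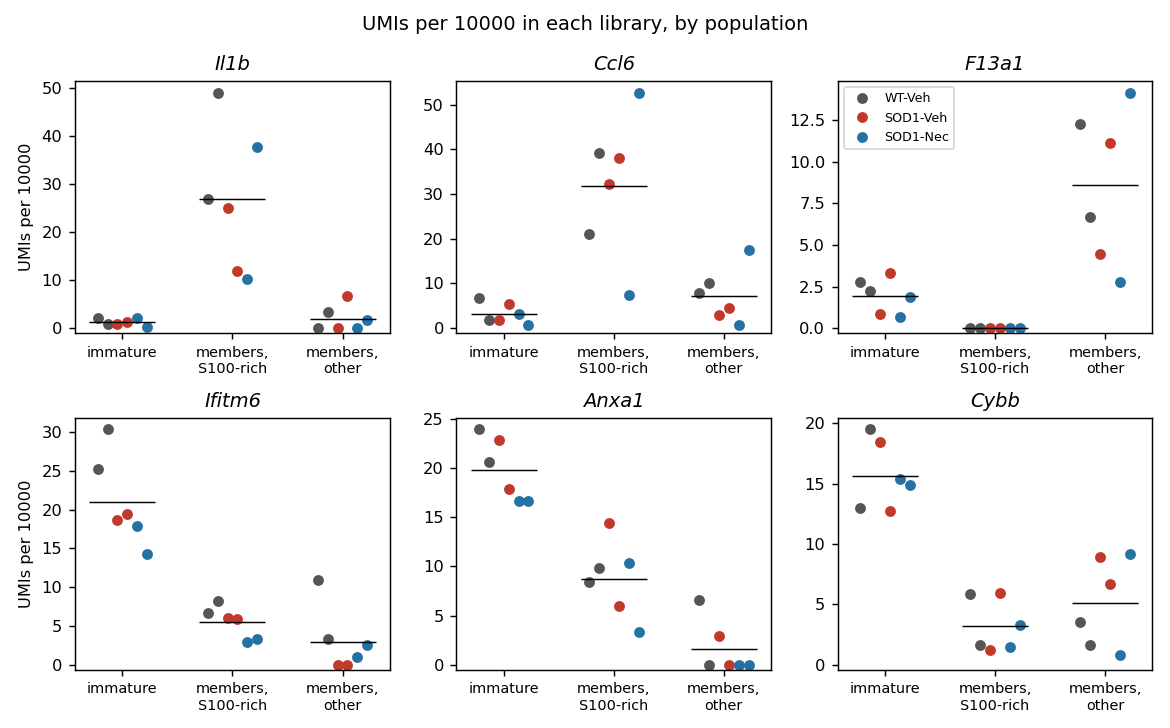
UMIs per 10000 of 6 genes in each library (points, coloured by group; black lines are means over 6 libraries) for immature neutrophils, the S100-rich members and the other members. Il1b and Ccl6 are high in S100-rich members, F13a1 is at 0 there, and Ifitm6, Anxa1 and Cybb are highest in immature neutrophils.

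Granule proteins, a subunit of the phagocyte oxidase and chromatin proteins were among the lower genes. The populations were divided by granule RNA, so the fall of other granule genes is no independent support for a difference in maturity. Fcnb had 318 UMIs in immature neutrophils and 3 in the members, a ratio of summed UMIs per total of 38.4 (exact 95% interval 13 to 187, counting error only). All 3 UMIs were in the other members; against a floor of 3 UMIs over the S100-rich members, Fcnb was at least 12.2-fold lower there. Lta4h was also at 0 in the S100-rich members and at least 8-fold lower. Serpinb1a, an inhibitor of neutrophil proteases, fell by 3.78 on the log2 scale (SE 0.54), with 8 UMIs in members against 308.

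Ifitm6, an interferon-inducible membrane protein of myeloid cells, was lower in all 6 libraries and the 2 populations did not overlap. Members held 33, 7, 5, 5, 7 and 5 UMIs against 257, 191, 86, 99, 109 and 130 in immature neutrophils, a log2 fold change of -2.48 ± 0.33 (edgeR adjusted p = 0.000355). Its level in S100-rich members was 5.51 ± 2.02 per 10000 against 21.0 ± 5.78. Anxa1, the anti-inflammatory annexin A1, fell by 2.40 (SE 0.37), and Cybb, the catalytic subunit of the NADPH oxidase, by 2.15 (SE 0.39). 1100001G20Rik (Wfdc21), a secreted whey acidic protein, fell by 2.34 (SE 0.38); all 155 of its member UMIs were in S100-rich barcodes. In the S100-rich members alone the changes were smaller for Anxa1 (-1.34), 1100001G20Rik (-0.97) and Serpinb1a (-2.65), and close to the values over all members for Ifitm6 (-2.03), Cybb (-2.24), Hmgn2 (-2.71) and Hmgb2 (-1.36).

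Genes of chromatin and cell division were lower as well. Hmgn2, a nucleosome-binding protein, fell by 2.78 (SE 0.39) and Hmgb2, a DNA-bending protein of dividing cells, by 1.47 (SE 0.34). The list counts over all members stand beside 3.84% of all tested genes called lower and 0.548% called higher. Those over the S100-rich members stand beside 43 genes lower and 44 higher of 290 tested. Among the cell division genes 2 of 7 tested were called lower, none higher, and the median was -1.01. Among other secondary and tertiary granule proteins 6 of 11 tested were lower, none higher, with a median of -1.90. In the S100-rich members 6 of 11 were lower and 2 higher, with a median of -0.97. Since granule RNA divided the populations, lower values of other granule genes are not independent of the gate, and these counts are a description. For the NADPH oxidase 1 of 6 was lower (median -0.99); this was Cybb, which the granule list also holds. Over the S100-rich members 1 of 5 oxidase genes was lower and 1 higher (median -0.25), near the shares over all genes of that fit. Cytokines and chemokines had 2 of 3 tested higher, and 3 of 3 in the S100-rich members. Of 27 dissociation and immediate-early genes, 14 were tested and 1, the transcription factor Klf2, was lower at -1.41; it stood at -0.19 in the S100-rich members, where it was not called, and at 0.17 when barcodes of 100 genes were admitted and the S100 share was required. The remaining calls named by the rule, Cpne3, Adpgk, Fam101b, Trem3, Arhgdib and Prdx5, lay between -3.05 and -1.61.

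**Figure D3:**
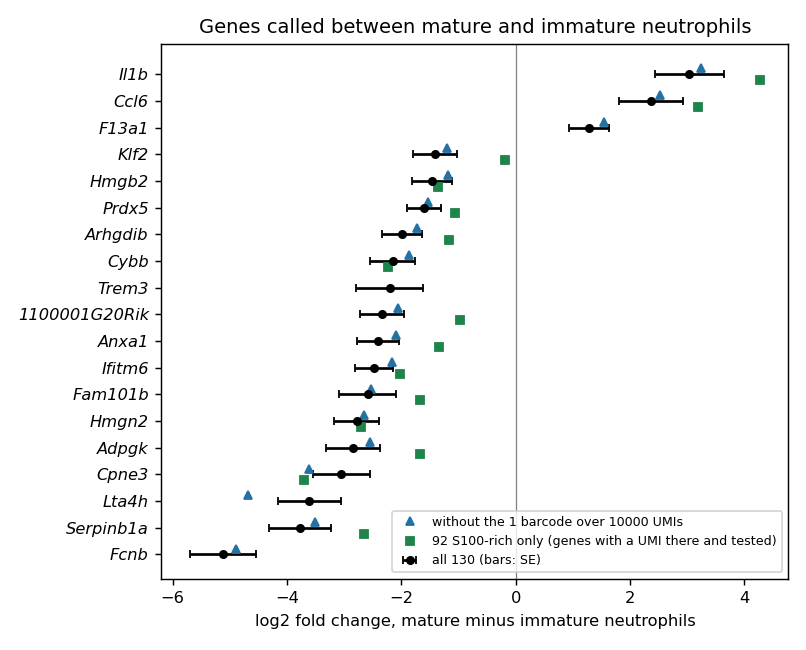
Log2 fold change (x axis) of mature against immature neutrophils for the called genes that are named: black points with SE for all 130 members, blue triangles without the barcode of over 10000 UMIs, green squares for the 92 S100-rich members where they hold a UMI of the gene and it was tested. Il1b and Ccl6 lie right of 0 in every set, and the genes below F13a1 lie left of it.

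S100a8 and S100a9 themselves were lower over all members, at -2.07 ± 0.62 and -1.77 ± 0.62 on the log2 scale, without passing (edgeR adjusted p = 0.0712 and 0.122). Per 10000 UMIs, S100a9 stood at 1095 ± 187 in immature neutrophils, 892.6 ± 72.3 in S100-rich members and 2.20 ± 0.894 in the other members. The gate genes of the granules fell by design: Camp went from 17790 UMIs in immature neutrophils to 17 in the members.

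Against monocytes, the nearest other myeloid cells, the members were set apart by calprotectin and by the near absence of class II antigen presentation genes. Of 527 genes tested, 49 passed in edgeR (9.30%): 30 higher (5.69%) and 19 lower (3.61%). S100a9 was higher by 8.10 ± 0.83 and S100a8 by 7.19 ± 0.78, and 1100001G20Rik by 6.32 ± 0.55, each in 6 of 6 libraries. Members were chosen by neutrophil RNA and monocytes were kept below both neutrophil limits, so these neutrophil gene differences are not independent of that choice. Cd24a, a surface sialoprotein of granulocytes and B cells, was higher by 4.20 ± 0.50. Il1b was higher by 2.29 ± 0.49 (edgeR adjusted p = 0.008), in 5 of 6 libraries. The antioxidant genes Txn1 (1.66 ± 0.34) and Gsr (1.68 ± 0.38), the protease inhibitor Slpi (1.82 ± 0.43) and S100a6 (1.59 ± 0.39) were higher too. In the S100-rich members alone S100a6 stood at 3.02, Txn1 at 2.61 and Il1b at 3.97. Haemoglobin genes were also called higher (Hbb-bs 3.06 ± 0.95), with a wide spread between libraries (CPM, counts scaled to library size, 67266 ± 72755, SD, n = 6); their part in the other calls was not tested.

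Class II antigen presentation genes were almost unseen in the members. Cd74 was scarce in immature neutrophils too, at 0.267 ± 0.304 UMIs per 10000 against 0.138 ± 0.337 in the members (SD, n = 6). H2-Aa had 207 UMIs in monocytes and 0 in the members, and was at least 35.6-fold lower against a floor of 3 UMIs over the group; over the S100-rich members alone the bound was 11.3-fold. Cd74, the invariant chain, had 487 UMIs in monocytes and 1 in the members, a ratio of 251 (exact 95% interval 44.9 to 9940). The single member UMI was not in an S100-rich member, and over those Cd74 was at least 26.7-fold lower. H2-Ab1 had 225 and 2, a ratio of 58.0 (15.9 to 482). Both intervals cover counting error only, and monocytes held 7.05 to 60.2 UMIs of Cd74 per 10000 between libraries. Ctss, a lysosomal protease that processes the invariant chain, fell by 2.16 (SE 0.38). S100a4 stood at -1.94 (SE 0.49), and the class I genes B2m at -1.05 (SE 0.28) and H2-K1 at -1.36 (SE 0.38), all called lower. Class I RNA was not absent: members held 139 UMIs of B2m. Within the S100-rich members S100a4 stood at -3.76, B2m at -0.90 and H2-K1 at -0.93, the last not called. Of 3 tested class I genes there, 1 was lower and 1 higher. Over all genes of that fit, 98 of 241 were lower and 73 higher, so these class I counts do not stand out. The count of calls against monocytes rested on which libraries entered: with a single library left out it ran from 10 (without SOD1-Veh 1) to 104 (without SOD1-Nec 1).

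The share of mature neutrophils was compared between groups. In library order they made up 6.80%, 3.07%, 4.76%, 4.35%, 3.03% and 2.52% of retained barcodes, from 35 of 515 in the first library to 20 of 794 in the last. Wilson 95% intervals ran from 4.93 to 9.31% in WT-Veh 1 and from 1.64 to 3.86% in SOD1-Nec 2. Both SOD1-Nec libraries were below all others, the higher of them only just (3.03% against 3.07% in WT-Veh 2). That order was lost with no mitochondrial limit (2.72% against 2.10%), with at least 100 genes (4.14% against 3.93%) and with at least 300 genes (2.30% against 1.60%), each for SOD1-Nec 1 against WT-Veh 2. Group means were 4.93% ± 2.64, 4.55% ± 0.293 and 2.77% ± 0.358 (SD, n = 2). SOD1-Nec differed from SOD1-Veh by -1.78 percentage points (exact permutation p = 0.333, two-sided, the smallest that 2 against 2 libraries allow), so this test cannot pass 0.05 in this design.

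The number of mature neutrophils was nearly the same in SOD1-Veh (19 and 19) and SOD1-Nec (20 and 20), while immature neutrophils numbered 38 and 42 against 76 and 85, and retained barcodes 399 and 437 against 661 and 794. The lower shares in SOD1-Nec thus came with larger denominators. Of mature plus immature neutrophils, 30.4%, 23%, 33.3%, 31.1%, 20.8% and 19% were mature in library order. SOD1-Nec lay below the other groups in both libraries, with differences of -12.3 percentage points from SOD1-Veh and -6.76 from WT-Veh (exact permutation p = 0.333 for each). Because the gate needs UMIs, each barcode was also thinned to 400 UMIs, leaving out 779 shallower ones; the shares were then 31.9%, 23.4%, 31.4%, 30.0%, 15.6% and 15.1% in library order. Among S100-rich members they were 21.6%, 18.6%, 28.3%, 26.3%, 15.6% and 13.3%. With at least 300 genes the order was lost, at 26.1%, 11.1%, 26.5%, 14.3%, 18.4% and 12.8%. Median depth was lowest in SOD1-Nec (528 and 526 UMIs per retained barcode, against 577 to 727 elsewhere); its part in the result was not tested.

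**Figure D4:**
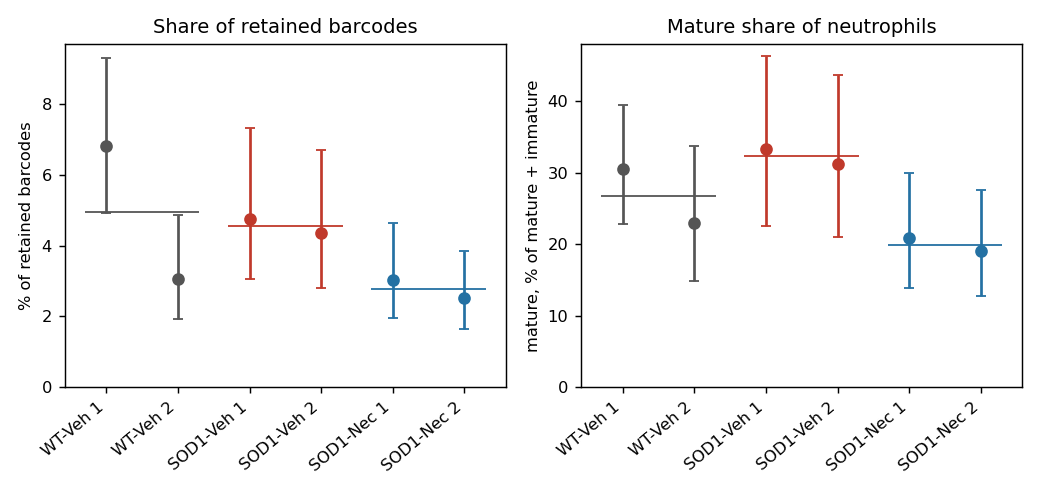
Share of retained barcodes (left) and mature share of all neutrophils (right), in percent, for each library with its Wilson 95% interval; horizontal lines are group means. The SOD1-Nec libraries are lowest in both panels, at 2.52 to 3.03% and 19 to 20.8%.

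The low gene number of mature neutrophils made the 200-gene limit matter. Among 3164 barcodes with at least 100 but under 200 genes, 187 met the marker part of the gate, more than the 130 retained, and 176 of these were S100-rich. They numbered 47, 27, 14, 32, 42 and 25 in library order. With them, the mature share of neutrophils was 39.2%, 36.1%, 40.2%, 49.0%, 29.2% and 22.4%, and both SOD1-Nec libraries were again lowest.

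**Figure D5:**
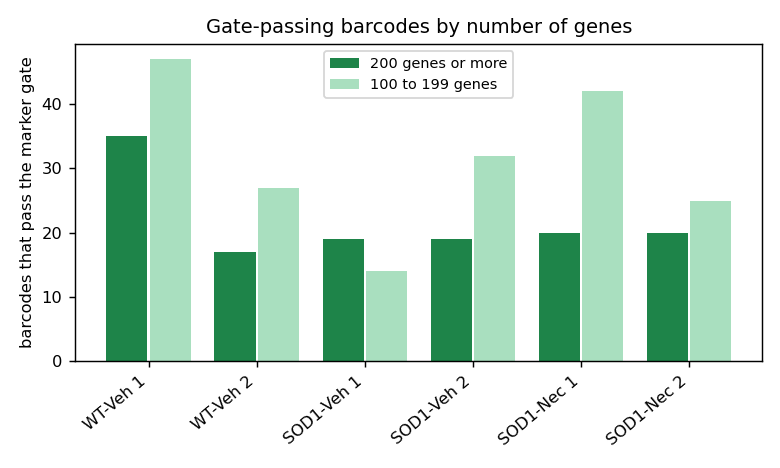
Number of barcodes per library (y axis) that pass the marker gate with at least 200 genes (dark bars, 130 in all) and with at least 100 but under 200 genes (light bars, 187 in all). The light bar is the taller in every library but SOD1-Veh 1.

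Within the members, no gene passed the test between groups. In each of the 3 contrasts edgeR called 0 of 258 genes (0%). Unadjusted p-values were below 0.05 for 7 genes in SOD1-Veh against WT-Veh, 38 in SOD1-Nec against SOD1-Veh and 24 in SOD1-Nec against WT-Veh, and DESeq2 called 0, 0 and 1. The contrasts share libraries. The median log2 fold change over tested genes was 0.46 in SOD1-Nec against SOD1-Veh and 0.25 in SOD1-Nec against WT-Veh, so single values there are read against that shift.

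Sod1 was not called, but passed in several alternative settings. Each table has 1 row for Sod1, so RNA of the mouse gene and of the human transgene cannot be told apart. Members held 9, 0, 27, 35, 271 and 66 Sod1 UMIs in library order, and 227 of the 271 were in the large barcode. The log2 fold change was 4.10 ± 1.13 in SOD1-Veh against WT-Veh (edgeR adjusted p = 0.951) and 5.05 ± 1.16 in SOD1-Nec against WT-Veh (0.432). Without the large barcode Sod1 passed in both, at 3.93 and 4.21. Sod1 moved the same way in barcodes with under 100 genes. There it made up 0.978 and 0.789 of 10000 UMIs in WT-Veh, and 32.4 to 59.2 in the other groups. The S100-rich members held 0.839 and 0 in WT-Veh, and 10.8 to 31.3 in SOD1-G93A mice. The part of free RNA in the result was not tested.

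Other genes with the smallest p were not called either. In SOD1-Veh against WT-Veh they included mt-Co1 (1.60), the nucleolar protein Ncl (1.57) and the lipid carrier Apoe (1.51) on the higher side, and the transcription factor Jund (-2.41) with the ribosomal genes Rps3a1 (-1.46) and Rpl14 (-1.47) on the lower. In SOD1-Nec against SOD1-Veh the ribosomal genes Rpl14 (2.23), Rps3a1 (1.76) and Rpl26 (1.78) stood above 0 and Stk17b (-2.55), Thbs1 (-2.12), Pygl (-2.82) and Btg1 (-2.22) below it. Of the 81 Rpl14 UMIs in SOD1-Nec, 3 and 1 were in S100-rich members of the respective libraries, and Rps3a1 stood at 1.29 without the large barcode. In SOD1-Nec against WT-Veh, Clu stood at 4.91 and 2.60 without the large barcode, Ncl at 2.00 and Rpl26 at 1.34, while the neutrophil chemokine Cxcl2 stood at -3.90 (4 UMIs against 38), Thbs1 at -2.45, the glycogen phosphorylase Pygl at -2.66 and the guanine deaminase Gda at -1.66. Without the large barcode Thbs1 stood at -1.30 against SOD1-Veh and Gda at -0.75 against WT-Veh.

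Il1b did not differ between groups beyond the spread of the libraries. CPM values, which are counts scaled to library size with TMM factors, averaged 1813 ± 1474 for WT-Veh, 1255 ± 86.4 for SOD1-Veh and 560 ± 539 for SOD1-Nec (SD, n = 2), and the log2 fold change of SOD1-Nec against SOD1-Veh was -1.19 ± 0.95 (edgeR adjusted p = 0.457). In the S100-rich members it was 0.35. The necroptosis genes could not be read at this depth: Ripk1, the target of Necrostatin-1s, had 2 UMIs, both in WT-Veh, and Ripk3 and Mlkl had 0 (0 of 130 members, which allows a share with a UMI of up to 2.31%). Tnf had 2 UMIs and Il1a 1.

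All 7 maturity genes, which chose the barcodes, had lower mean CPM over all members under Necrostatin-1s than in SOD1-Veh, without a test. For Cxcr2 the order of single libraries, though not of the means, depended on the scaling. Unscaled, SOD1-Nec 2 held 9.40 UMIs per 10000, above both SOD1-Veh libraries (8.61 and 8.54), and SOD1-Nec 1, with the large barcode, held 2.11. Mmp9, with no test, averaged 1018 ± 453 CPM for WT-Veh, 1142 ± 463 for SOD1-Veh and 133.2 ± 28.6 for SOD1-Nec (SD, n = 2); 11, 7, 6, 9, 2 and 2 members held a UMI. In the S100-rich members the fitted log2 difference of SOD1-Nec from SOD1-Veh was -1.42, against -3.02 over all members. Retnlg changed from -2.10 over all members to -0.47, Cxcr2 from -0.95 to 0.65, Mmp8 from -1.80 to -0.22, Il1r2 from -1.68 to 0.03 and Hdc from -0.82 to -0.06.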

How the data were processed

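Per the labels, spinal cord cells went through Drop-seq, a droplet method in which beads mark each RNA molecule with its cell and with a molecular identifier (UMI). The authors deposited UMI counts per gene symbol and barcode, with no normalization, in 1 table per library. The genome build is mm9 per the submitters' processing notes; for the aligner and annotation, details were not given in the sources used here. In all, 17042 genes occurred in every table and were used. Doublets were marked per library with Scrublet in scanpy 1.11.5 (16 barcodes, 2 of them members) and were kept.

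UMIs were summed per library over the members, the immature neutrophils and the monocytes. Sums were tested with edgeR 4.0.16 (quasi-likelihood F test, TMM factors, filterByExpr) in R 4.3.3, and with DESeq2 1.42.0 as an alternative. Group contrasts used 1 fit of the 6 libraries; populations were compared with the library as a block. Genes that chose the barcodes got no test, and p-values were adjusted by Benjamini-Hochberg over the others, with calls at 0.05. Shares were compared by exact permutation over libraries. Fits were tested on simulated counts, where they recovered changes that were balanced between the groups. Large changes placed in 1 group only shifted the estimates of unchanged genes and added false calls. The simulation gave every gene the same spread, changed only abundant genes and held no dominant barcode. How well the fits recover changes in these data was therefore not tested.

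The members and gene lists were chosen with earlier results of these data known. Genes were named by a written rule: against other populations, the called genes with the largest change and the same sign in every library and, from each list, the 3 genes of lowest p at most; between groups, Sod1, Il1b and the necroptosis genes and, where under 10 genes were called, the 4 higher and 4 lower with the smallest p. Deviations of same-numbered libraries from their group means correlated at 0.34, 0.18 and 0.47 over 265 genes, so by the rule used (each over 0.1) the numbers pair the libraries, although the tables numbered 1 and 2 also differ in the genes they list (18169 and 18650). Some genes that the naming rule gives are not reported here.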

Additional observations from a re-analysis of the deposited data

Results flagged for a closer look

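The marker part of the gate was also met by 187 barcodes with at least 100 but under 200 genes, which no comparison of all members used. They stand out because they are more numerous than the 130 members, and because 5.91% of barcodes in that range passed, against 3.87% of retained barcodes. Their median maturity count ranged from 6 to 12 UMIs between libraries.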

How the results depend on the processing

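Without the barcode of over 10000 UMIs, 1, 0 and 1 genes were called in SOD1-Veh against WT-Veh, SOD1-Nec against SOD1-Veh and SOD1-Nec against WT-Veh, 49 against immature neutrophils and 105 against monocytes. With the S100-rich members alone the counts were 0, 0, 1, 87 and 171; with barcodes of at least 100 genes 0, 0, 0, 77 and 200; with both settings 2, 7, 3, 162 and 240. These 4 settings were chosen after seeing the data. The 7 genes called between SOD1-Nec and SOD1-Veh were all higher and included Hbb-bs, Pabpc1, Rplp1, Sod1, Tpt1 and mt-Tp; the 2 of SOD1-Veh against WT-Veh were Sod1 and Meg3, and the 3 of SOD1-Nec against WT-Veh included Sod1 and Pabpc1. With no filter on low counts, 207 genes were called against immature neutrophils and 318 against monocytes. With at least 2 S100 UMIs the monocyte count was 81, with at least 300 genes 4. DESeq2 and a minimum of 3 maturity UMIs each gave 1 call (Sod1) in SOD1-Nec against WT-Veh. Leaving out each library gave 0 to 1 calls in SOD1-Veh against WT-Veh (1 without SOD1-Nec 1), 0 in the other group contrasts, 19 to 40 against immature neutrophils (40 without SOD1-Nec 1) and 10 to 104 against monocytes.

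The share difference of SOD1-Veh from WT-Veh, -0.377 percentage points, turned to 0.0825 with 3 maturity UMIs, 0.0196 with 2 S100 UMIs, 0.287 in S100-rich members, 0.343 with 100 genes and, leaving out each library, ran from -2.24 (without WT-Veh 2) to 1.49 (without WT-Veh 1). Among named genes, with both added settings Klf2 stood at 0.17 against immature neutrophils and mt-Co1 at -0.25 in SOD1-Veh against WT-Veh. Il1b in SOD1-Veh against WT-Veh ran from -1.29 without WT-Veh 1 to 0.53 without WT-Veh 2, and stood at 0.022 with 100 genes, and in SOD1-Nec against SOD1-Veh at 0.35 in S100-rich members. The cause was not tested. The replicate block called 0 genes in each group contrast and changed no call; unadjusted p-values below 0.05 then numbered 13, 46 and 44. In S100-rich members same-numbered libraries did not deviate together (correlations -0.10, 0.02 and -0.17). Removing members with 3 or more UMIs of another class's markers left 1 to 4 barcodes per library and was not run as a comparison. Members summed to 12119 to 56981 UMIs per library, the highest sum resting mostly on the large barcode; whether depth limits the group contrasts was not tested.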

Other observations

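The 7 maturity genes summed to 98.7 and 32.3 UMIs per 10000 in the immature neutrophils of SOD1-Nec, below the 120.6 to 176.9 of the other 4 libraries. These values were noticed in the data and have no test.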
